A study of Mus musculus with 8 samples.

Results

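The miR-130 and miR-301 family is a group of microRNAs (miRNAs) that carry the same seed, the short stretch near the 5′ end of a miRNA that pairs with target mRNAs. A miRNA is cut from a hairpin precursor with a 5p and a 3p arm, and either arm, or both, can be loaded into an Argonaute protein to repress its targets. In this family the 3p arms share the seed and are the arms usually found in tissue. Family members have been described as repressors of Tnf and the adipogenic factor Pparg, and miR-301a as a repressor of Nkrf, an inhibitor of NF-κB, which places the family near the pathway that interleukin-1β (IL-1β) switches on.

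Members were chosen by name, as both arms of miR-130a, miR-130b, miR-301a and miR-301b in mouse (mmu-miR-130a-3p and so on, with the species prefix left out elsewhere). All 8 names were among the 1966 names of the deposited count table, of which 1003 had at least 1 count. In the study, primary articular chondrocytes, the cells of joint cartilage, were isolated from femoral heads of wild-type mice at 3 weeks of age by digestion with collagenase P. The cells were cultured with vehicle (4 libraries) or with IL-1β at 1 ng/ml (4 libraries) for 24 h, and their small RNA was sequenced to find miRNAs that respond to the cytokine. Wild-type cells were used in both groups, so that the groups differed by IL-1β alone as far as the labels tell. Nothing in the labels says that libraries came from separate cultures or animals, so p-values measure the spread between these libraries, which may be technical.

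Library totals ranged from 616475 to 1568367 counts, so that a single count stood for 0.638 to 1.62 CPM, the count in a library scaled to a total of 1e6. The cartilage miRNAs miR-140 and miR-455 (4 arms, all detected) took 15.6% to 16.8% of counts in vehicle libraries and 12.4% to 15.3% in IL-1β libraries (14.7% to 15.3% without IL-1β replicate 4). All 4 arms had log2 fold changes below 0, from -0.35 (miR-455-3p, unadjusted p = 0.00221, adjusted p = 0.0691 by edgeR) to -0.15, and 2 had an unadjusted p under 0.05, against 11.2% of all tested miRNAs. None was called by edgeR (1.95% of all tested miRNAs were), by DESeq2 or by edgeR without IL-1β replicate 4, where miR-455-3p had an adjusted p of 0.0297 but a log2 fold change of -0.24, short of the threshold of 0.3. Of 5 haematopoietic markers, miR-142a-3p, miR-223-3p and miR-451a were at 0 in every library, and the list summed to 0.00441% to 0.00638% of counts with vehicle against 0.00260% to 0.00471% with IL-1β, nearly all of it miR-150-5p. miR-150-5p, the only marker of this list that was tested, had a log2 fold change of -0.51 (95% interval -0.90 to -0.12, unadjusted p = 0.0120, adjusted p = 0.196 by edgeR) and of -0.46 without IL-1β replicate 4 (unadjusted p = 0.0259, adjusted p = 0.278 by edgeR), and was called in neither. The 3 muscle markers and miR-122-5p, the liver marker, were at 0, the endothelial list reached at most 0.000288% and the epithelial list at most 0.000576%, the latter with counts in IL-1β libraries only. The part of these marker levels in the results on the family was not tested, and in bulk RNA fewer cells of a type cannot be told apart from less RNA per cell. IL-1β replicate 4 stood apart: the standard deviation (SD) of its log2 deviations from the group mean over 195 abundant miRNAs was 0.40, against 0.15 to 0.23 in the other libraries, and the results that it moved most are given with and without it.

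The mature sequences show what the arms have in common and how close the members are. They were taken from RefSeq (GRCm38.p6), which held 7 of the 8 members; miR-301b-3p is named only. The 3p arms that the counts turn on are printed 5′ to 3′ with the seed (bases 2 to 8) in capitals:
mmu-miR-130a-3p: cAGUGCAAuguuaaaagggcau
mmu-miR-130b-3p: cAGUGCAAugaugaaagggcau
mmu-miR-301a-3p: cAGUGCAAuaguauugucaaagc

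The seed AGUGCAA was found in 7 of 1679 mature miRNAs in this reference, and 4 of these lay outside the family: miR-130c, miR-721, miR-6341 and miR-6389. All 4 were listed in the count table with 0 counts in all libraries. Names in the count table without a sequence in this reference, miR-301b-3p among them, were not searched for the seed. miR-130a-3p and miR-130b-3p differed at 2 of 22 positions, by the substitutions U11A and A13G (the base of miR-130a-3p, its position counted from 1 at the 5′ end, the base of miR-130b-3p), and were 90.9% identical. The study did not state how reads that fit several places were counted, so a share of reads could be split between such close relatives. miR-301a-3p kept the seed but was 54.5% identical to miR-130a-3p and 50% to miR-130b-3p over the first 22 bases, laid side by side without gaps.

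The 5p arms, by contrast, carry other seeds and would pair with other targets. They are shown because miR-130b delivered reads from this arm and the other hairpins hardly did:
mmu-miR-130a-5p: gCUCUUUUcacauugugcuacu
mmu-miR-130b-5p: aCUCUUUCccuguugcacuacu
mmu-miR-301a-5p: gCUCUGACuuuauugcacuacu
mmu-miR-301b-5p: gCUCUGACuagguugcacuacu

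The seeds of miR-130a-5p and miR-130b-5p differed at their last base, while miR-301a-5p and miR-301b-5p shared a seed and differed at 3 of 22 positions (U10A, U11G and A12G, with the base of miR-301a-5p first). The 4 hairpins lie at 3 loci of the mouse genome (GRCm38, the build named by the study as mm10). Mir130a (chr2:84741115-84741178, minus strand) overlaps no other annotated gene in GENCODE M21, and the nearest, Gm19426, is 990 bp away. Mir301, the hairpin of miR-301a (chr11:87113004-87113089, plus strand), lies on the same strand in an intron of Ska2, a gene for a spindle and kinetochore protein. Mir130b (chr16:17124061-17124142) and Mir301b (chr16:17124400-17124496) lie 257 bp apart on the minus strand, both in an intron of 2610318N02Rik. In the hairpin of miR-130b, the 3p arm covers chr16:17124071-17124092 and the 5p arm chr16:17124109-17124130.

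The family was a minor part of the chondrocyte miRNA pool, and it was led by 1 member. Together the 8 arms held 6072 of 7959576 counts, or 0.0763%. miR-130a-3p alone held 5105 of them, miR-130b-3p 580, miR-130b-5p 187, miR-301a-3p 182, miR-301b-3p 11 and miR-130a-5p 7. miR-301a-5p and miR-301b-5p had no count in any library, which allows up to 0.377 CPM over all 8 libraries (3 counts; floors and intervals cover counting error only, since no molecular identifiers were described). Tests were run on miRNAs with over 1 CPM in 4 libraries or more, a filter that 564 miRNAs and 5 of the 8 arms passed. The 5 arms were the 3p arms of all 4 hairpins and miR-130b-5p.

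The levels formed clear steps. The arms are of nearly equal length (22 or 23 nt), so normalized CPM (CPM with TMM-scaled library totals) can be set side by side without a length correction, although ligation favors some sequences over others. miR-130a-3p (mean 634 normalized CPM over the 8 libraries) ranked 81 among all names and was above miR-130b-3p (72.3) in 8 of 8 libraries, by 8.77-fold on the means. miR-130b-3p was in turn above miR-301a-3p (23.9) in 8 of 8 libraries, by 3.03-fold. miR-301a-3p and miR-130b-5p (22.5) could not be ordered over the 8 libraries: the former was higher in 4 libraries and tied in 1, and the ranges overlapped. The group means ran in opposite orders, which was not tested. miR-301a-3p averaged 20.4 and miR-130b-5p 27.5 with vehicle, against 27.3 and 17.6 with IL-1β. Both arms stood well above miR-301b-3p (1.45) and miR-130a-5p (0.677), which did not differ beyond their spread either.

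No arm of the family passed the test for a response to IL-1β. By the quasi-likelihood test of edgeR with Benjamini-Hochberg adjustment over the 564 miRNAs, 0 of the 5 tested arms were called (adjusted p under 0.05 and absolute log2 fold change over 0.3), where 1.95% of all tested miRNAs were called (1.42% higher and 0.532% lower with IL-1β). At an unadjusted p under 0.05 stood 1 arm, miR-130b-5p, which was lower with IL-1β, against 11.2% of all tested miRNAs in either direction and 4.08% in this one. DESeq2 called 0 family arms, and edgeR without IL-1β replicate 4 called 0 as well (log2 fold changes of -0.10 for miR-130a-3p, -0.11 for miR-130b-3p and 0.40 for miR-301a-3p; miR-301b-3p then failed the filter). The log2 fold changes of 3 arms were below 0 and of 2 above 0, with a median of -0.07 against 0.01 over all tested miRNAs.

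**Figure D1:**
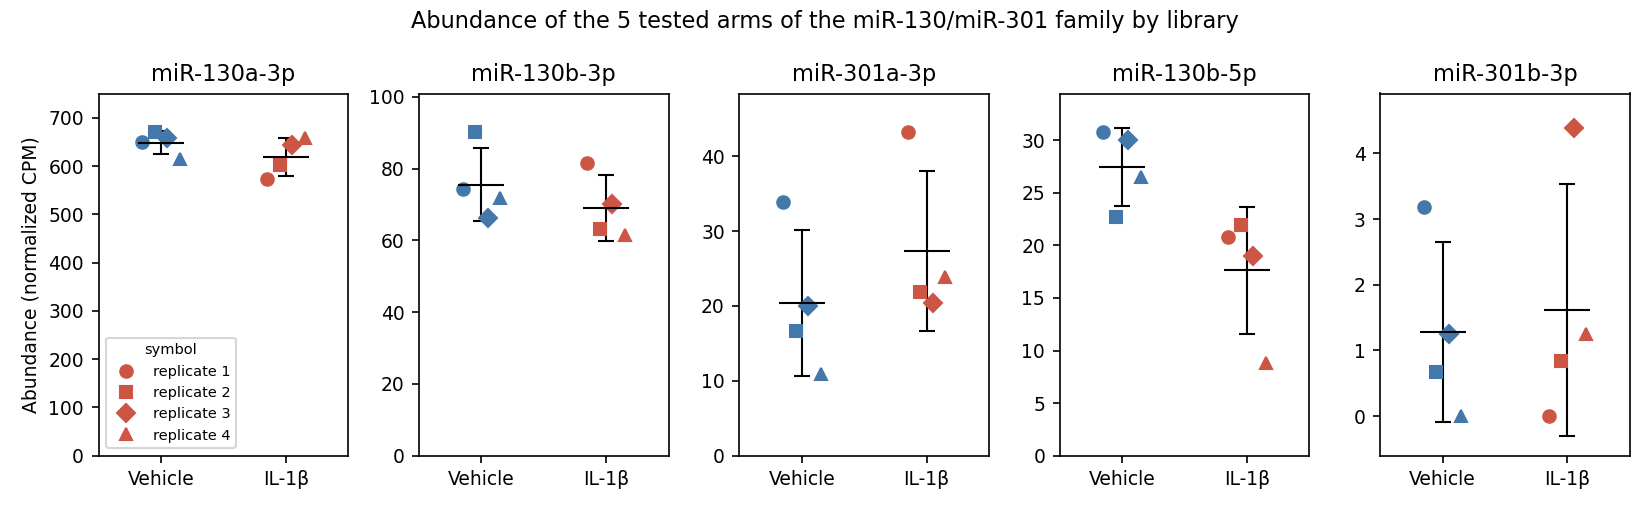
Abundance in normalized CPM of the 5 tested arms in 4 vehicle (blue) and 4 IL-1β (red) libraries; each symbol is a library, horizontal lines are means, bars are ± SD, and the axes differ in scale and start at 0 except for miR-301b-3p. The groups overlap for all 3p arms, whereas the IL-1β libraries of miR-130b-5p lie between 8.77 and 21.9 and the vehicle libraries between 22.7 and 30.7.

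For miR-130a-3p, the dominant member, the difference between groups did not pass the test. It stood at 650, 670.0, 658 and 615 normalized CPM in vehicle replicates 1 to 4. With IL-1β it stood at 573, 603, 643 and 659. All 8 libraries lay in a narrow band and the groups overlapped: the lowest value belonged to IL-1β replicate 1, while IL-1β replicate 4 was above vehicle replicates 1, 3 and 4. The means were 648 ± 23.6 and 619 ± 39.2 (SD, n = 4), and the log2 fold change was -0.07 (SE 0.0852, adjusted p = 0.807 by edgeR). The 95% interval of the fold ran from 0.845 to 1.08, which bounds the change that these libraries allow. The spread between libraries was about what counting gives, with a coefficient of variation of 3.63% with vehicle and 6.33% with IL-1β, where counting error alone would give 3.91% and 4.57%.

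miR-130b-3p, which shares the seed and 90.9% of its bases with miR-130a-3p, did not pass it either. Its values were 74.2, 90.1, 66.2 and 71.7 normalized CPM with vehicle and 81.6, 63.2, 70.1 and 61.4 with IL-1β. The highest library was a vehicle library and the lowest an IL-1β library, but the groups overlapped throughout. Means of 75.5 ± 10.3 and 69.1 ± 9.14 (SD, n = 4) gave a log2 fold change of -0.15 (SE 0.151, 95% interval -0.46 to 0.16, adjusted p = 0.757 by edgeR). Leaving out 1 library moved it between -0.23 (without IL-1β replicate 1) and -0.04 (without vehicle replicate 2).

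miR-301a-3p, the arm ascribed to an NF-κB loop, had a higher mean with IL-1β, but its libraries were scattered. It stood at 33.9, 16.7, 19.99 and 10.9 normalized CPM with vehicle and at 43.2, 21.9, 20.5 and 23.8 with IL-1β. In each group replicate 1 was the highest, and 3 of the 4 IL-1β libraries lay inside the range of the vehicle libraries. The means were 20.4 ± 9.78 and 27.3 ± 10.7 (SD, n = 4), and the log2 fold change was 0.36 (SE 0.291, 95% interval -0.24 to 0.96, adjusted p = 0.753 by edgeR). Its coefficients of variation (48.0% with vehicle, 39.0% with IL-1β) exceeded those of counting error (24.8% and 22.3%). A single library decided the size of the value: the log2 fold change was 0.10 without IL-1β replicate 1 and 0.64 without vehicle replicate 1 (unadjusted p = 0.0335, adjusted p = 0.385 by edgeR).

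miR-301b-3p was at the limit of detection. It had 3, 1, 2 and 0 counts in vehicle replicates 1 to 4 and 0, 1, 3 and 1 counts in IL-1β replicates 1 to 4, or 6 against 5 counts in all. Its log2 fold change of 0.23 had an SE of 0.957 and a 95% interval from -1.75 to 2.21 (adjusted p = 0.989 by edgeR), so no change could be detected at this depth, and the sign turned when vehicle replicate 2 or 4 was left out. miR-130a-5p had 5 counts with vehicle (1 in replicate 1 and 4 in replicate 2) and 2 with IL-1β (both in replicate 2) and was too scarce to test.

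miR-130b-5p, the only 5p arm that passed the filter on low counts, had the smallest unadjusted p of the family. Its values were 30.7, 22.7, 30.0 and 26.5 normalized CPM with vehicle. With IL-1β they were 20.8, 21.9, 19.0 and 8.77. All 4 IL-1β libraries were below all 4 vehicle libraries, a pattern seen in this direction in 3.01% of the tested miRNAs and in either direction in 7.62%, but the margin was narrow: it was 0.777 normalized CPM with TMM scaling and 0.470 with median-of-ratios size factors, while with library totals alone the groups overlapped (22.5 for the lowest vehicle and 22.7 for the highest IL-1β library). The means were 27.5 ± 3.69 and 17.6 ± 6.02 (SD, n = 4), which gave a log2 fold change of -0.62 (SE 0.256, 95% interval -1.14 to -0.09). The unadjusted p was 0.0241 and the adjusted p 0.299 (edgeR), so the difference did not pass the test, and 44 other miRNAs had a smaller p.

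The size of this difference leaned on 1 library. IL-1β replicate 4, the library that stood apart over all miRNAs, held 7 counts of miR-130b-5p, for which the exact Poisson interval is 2.81 to 14.4 counts, or 3.53 to 18.1 normalized CPM. Without it the log2 fold change was -0.39 (unadjusted p = 0.107, adjusted p = 0.515 by edgeR). Over 15 alternative settings the value stayed below 0, between -0.83 and -0.39, with adjusted p from 0.221 to 0.636.

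**Figure D2:**
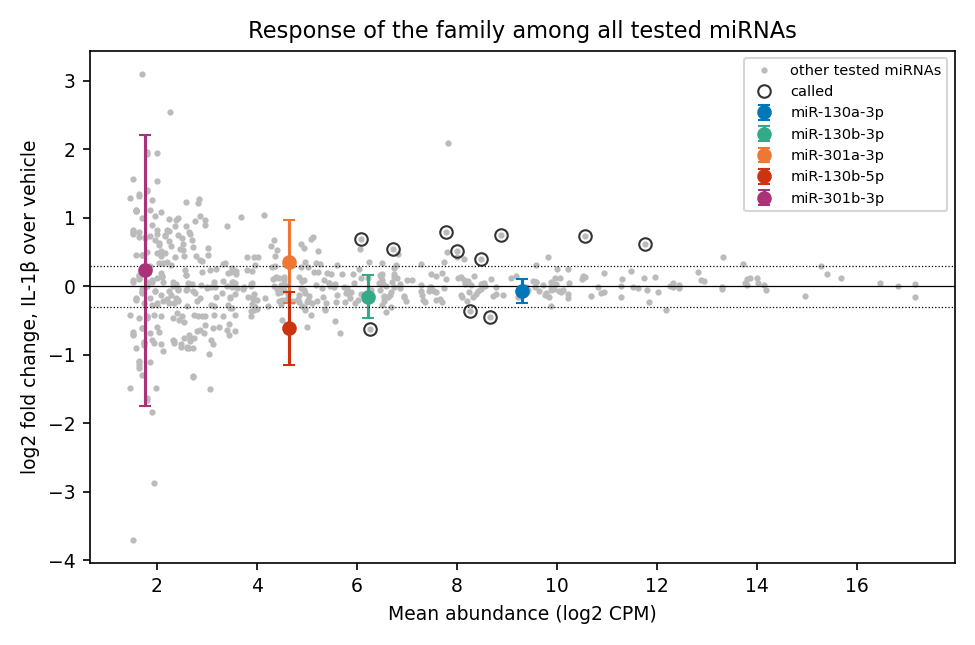
Log2 fold change (IL-1β over vehicle) against mean abundance (log2 CPM) for the 564 tested miRNAs (grey), with the 5 family arms in color (bars: 95% intervals), the 11 called miRNAs ringed, and dotted lines at ±0.3. The intervals of the 3p arms of the family cross 0, and miR-130b-5p lies below 0 without being called.

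The balance between the arms separated miR-130b from its relatives. For miR-130a, 7 of 5112 reads came from the 5p arm, a share of 0.137% (exact 95% interval 0.0551 to 0.282%). For miR-130b the share was 187 of 767 reads, or 24.4% (21.4 to 27.6%). For miR-301a, 0 of 182 reads were 5p, which allows up to 1.65% (3 counts), and for miR-301b 0 of 11, too few to give a useful limit. The interval of miR-130b did not overlap with those of miR-130a and miR-301a. In single libraries, the 5p share of miR-130b was 12.5% or more and that of miR-130a at most 0.397%. Their 3p arms differ at 2 positions and their 5p arms at 7 of 22. Among the 189 hairpins with at least 100 counts, the median 5p share was 52.1%, 42 hairpins were below 1%, as miR-130a was, and 46 lay between 10% and 90%, as miR-130b did.

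The share of the 5p arm of miR-130b was then compared between groups, since a ratio of the arms in a library needs no scaling between libraries. It was 29.3%, 20.1%, 31.2% and 27.0% in vehicle replicates 1 to 4 and 20.3%, 25.7%, 21.3% and 12.5% in IL-1β replicates 1 to 4. The groups overlapped, as vehicle replicate 2 was below 3 of the IL-1β libraries, and the lowest share was again that of IL-1β replicate 4. The means were 26.9 ± 4.83% and 19.97 ± 5.51% (SD, n = 4).

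On the log2 scale the 3p to 5p ratio (with 0.5 added to each count) averaged 1.44 ± 0.371 with vehicle and 2.00 ± 0.513 with IL-1β. The difference of 0.56 (SE 0.309, 95% interval -0.05 to 1.17) had an unadjusted p of 0.0711 and an adjusted p of 0.711 by limma over the 142 hairpins with both arms tested, of which 1.41% were called and 7.04% had an unadjusted p under 0.05. The exact two-sided permutation test on miR-130b alone gave p = 0.143, where 0.0286 is the smallest p that the 70 arrangements of 4 against 4 libraries allow. Without IL-1β replicate 4 the difference was 0.32 (adjusted p = 0.797 by limma). It was 0.74 without vehicle replicate 2 (unadjusted p = 0.0271, adjusted p = 0.547 by limma). Without IL-1β replicate 2 it was 0.72 (unadjusted p = 0.0377, adjusted p = 0.579 by limma). A shift between the arms of miR-130b thus passed neither test.

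**Figure D3:**
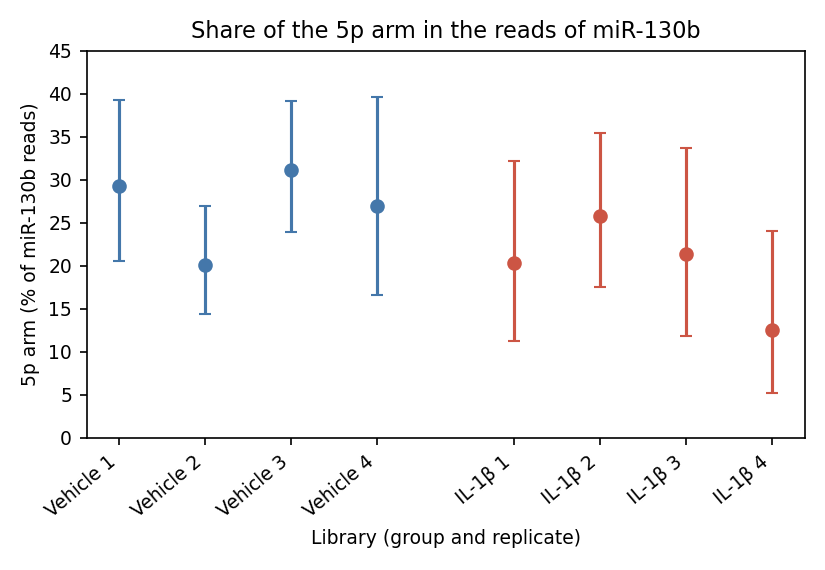
Share of the 5p arm (%) among the reads of miR-130b in each library, with exact binomial 95% intervals (counting error only), for vehicle (blue) and IL-1β (red). Shares run from 20.1% to 31.2% with vehicle and from 12.5% to 25.7% with IL-1β, and the intervals of the 2 groups overlap.

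The 4 3p arms were also summed, as arms of one seed family, although the seed of miR-301b-3p could not be read here. The sum was 761, 777, 746 and 698 normalized CPM in vehicle replicates 1 to 4 and 697, 689, 738 and 746 in IL-1β replicates 1 to 4. The groups overlapped, with means of 746 ± 34.4 and 717 ± 28.6 (SD, n = 4), a ratio of 0.962. As this sum is over chosen members, it was not tested.

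By library, miR-130a-3p was always the main source of this sum. It gave 87.0 ± 1.45% of the 3p reads of the family with vehicle and 86.3 ± 2.84% with IL-1β, and miR-130b-3p 10.1 ± 1.13% and 9.65 ± 1.46% (SD, n = 4). miR-301a-3p gave 2.71 ± 1.25% and 3.84 ± 1.58%, and miR-301b-3p under 1% in every library. In each library miR-130a-3p held over 80% of these reads, so the sum over the family follows this member. IL-1β replicate 1 differed most, with 82.1% miR-130a-3p and 6.19% miR-301a-3p.

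**Figure D4:**
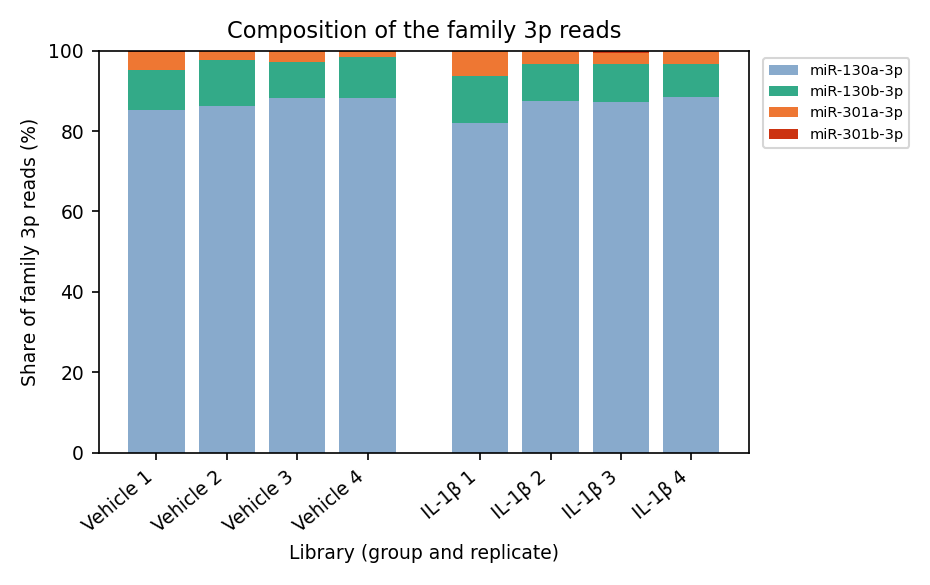
Share (%) of each 3p arm among the reads of the 4 family 3p arms in each library. miR-130a-3p makes up 82.1% to 88.4% in all 8 libraries, and the orange band of miR-301a-3p is widest in IL-1β replicate 1 (6.19%).

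Neighboring hairpins of the family were unequal in their output. Mir130b and Mir301b lie 257 bp apart on the same strand, yet miR-130b-3p had 580 counts and miR-301b-3p 11, a ratio of 52.7. miR-301b-3p was 1.86% of the 3p reads of the pair (exact 95% interval 0.933 to 3.31%). The ratio was 59.5 with vehicle and 44.6 with IL-1β, on 6 and 5 counts of miR-301b-3p, so these values cannot be told apart.

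Over the 8 libraries the tested arms did not move as a unit. Pearson's r of log2 normalized CPM between pairs of arms ran from -0.34 (miR-130a-3p with miR-301a-3p) to 0.56 (miR-130a-3p with miR-301b-3p), and for the arms of miR-130b it was 0.37. These are descriptions over 8 points, and in each the arms share a library with its depth and scaling, and the highest rests on an arm with 11 counts.

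Families with a seed shifted by a base against that of miR-130 can share some of its targets, and they were compared as a list. miR-19a-3p and miR-19b-3p, of a growth-promoting miRNA cluster, hold GUGCAA earlier in the molecule, and miR-148a-3p, miR-148b-3p and miR-152-3p hold AGUGCA later. The bases shared with the family seed are in capitals:
mmu-miR-19b-3p: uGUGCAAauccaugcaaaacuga
mmu-miR-148a-3p: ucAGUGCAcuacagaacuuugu
mmu-miR-152-3p: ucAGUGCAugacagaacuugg

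Of these 5 miRNAs, 4 were tested and 0 called in either direction by edgeR, with 0 at an unadjusted p under 0.05 and 0 called by DESeq2. Over all tested miRNAs 1.95% were called and 11.2% had an unadjusted p under 0.05, so these counts are near the background. The median log2 fold change was -0.08 against 0.01 over all tested, and -0.12 against -0.01 without IL-1β replicate 4. miR-148a-3p, with means of 5658 ± 381 (vehicle) and 5529 ± 254 normalized CPM (IL-1β; SD, n = 4), far exceeded the whole family. Its log2 fold change was -0.03, that of miR-148b-3p -0.13 and that of miR-152-3p -0.16, with adjusted p of 0.924, 0.757 and 0.753 by edgeR. The value of miR-148b-3p depended on single libraries: it ranged from -0.26 without vehicle replicate 4 (unadjusted p = 0.0450, adjusted p = 0.443 by edgeR) to -0.05 without vehicle replicate 3, and was -0.22 without IL-1β replicate 4. miR-19b-3p was scarce (7.56 ± 3.51 and 7.65 ± 5.35, log2 fold change 0.08, adjusted p = 0.992 by edgeR; 0.32 without IL-1β replicate 4) and miR-19a-3p had 5 counts.

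The miRNAs known to respond to NF-κB give the background for miR-301a-3p in these cells. Of 10 listed, 9 were tested and 2 were called, both higher with IL-1β (1.42% of all tested miRNAs were), and the median log2 fold change was 0.30, the value of miR-125b-5p. Without IL-1β replicate 4 the median was 0.13, again that of miR-125b-5p, and 3 members were called, all higher. miR-21a-5p, an abundant stress-responsive miRNA, rose from 355 ± 24.4 to 597 ± 92.9 normalized CPM (log2 fold change 0.75, adjusted p = 3.58e-05 by edgeR). miR-222-3p, a repressor of cell cycle inhibitors, rose from 2729 ± 68.2 to 4198 ± 385 (log2 fold change 0.62, adjusted p = 2.46e-05 by edgeR). The feedback inhibitor miR-146a-5p had the largest value of the list, 2.09, with an adjusted p of 0.184 by edgeR. It was 0.00188 by DESeq2, and without IL-1β replicate 4 the value was 1.33 with an adjusted p of 1.02e-08 by edgeR. The study singled out miR-146a-5p and took up miR-222 on these samples, so their place on the list is not independent evidence of their direction.

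Of the other 6 tested, miR-125b-5p and let-7i-5p had log2 fold changes of 0.30 and 0.20, miR-146b-5p, miR-221-3p, miR-132-3p and miR-155-5p of 0.50, 0.11, -0.01 and -0.03, and none passed the test. Without IL-1β replicate 4 miR-125b-5p was at 0.13 and miR-146b-5p at -0.14, neither of them called, and let-7i-5p had an adjusted p of 0.0466 by edgeR with a log2 fold change of 0.23, short of the threshold of 0.3. let-7i-5p was at 0.13 without IL-1β replicate 2, and miR-221-3p at 0.06 without vehicle replicate 4. miR-9-5p had 3 counts. miR-301a-3p, at 0.36 with an interval that includes 0 as well as the values of both called members, could not be placed with or apart from them.

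**Figure D5:**
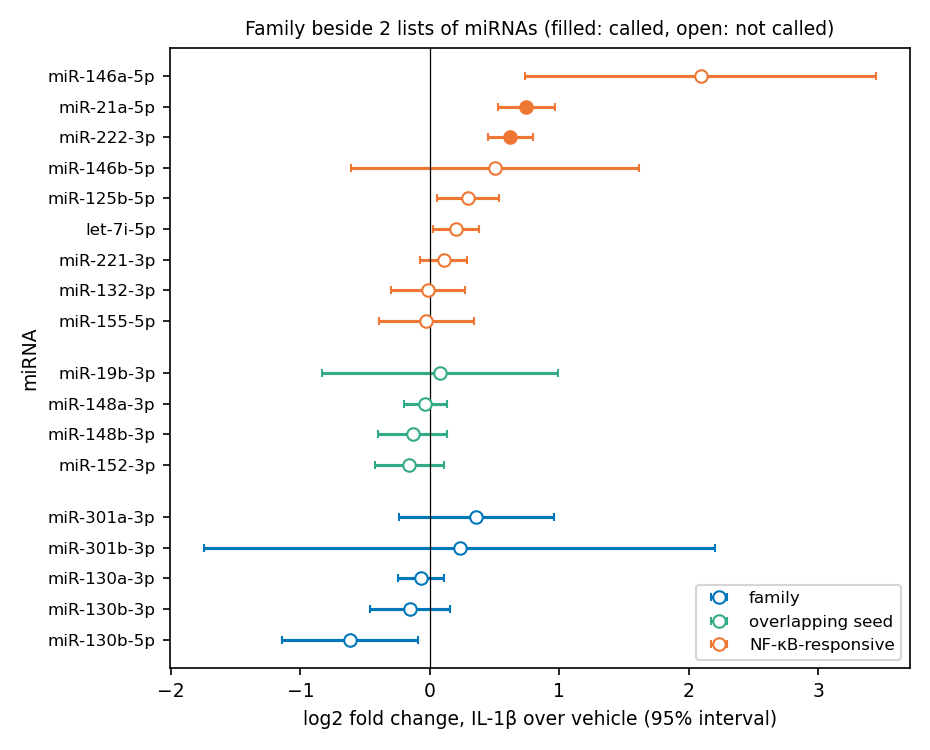
Log2 fold change (IL-1β over vehicle) with 95% intervals for the tested members of the family (blue), of the list with overlapping seeds (green) and of the NF-κB-responsive list (orange); filled points are called. The called members, miR-21a-5p and miR-222-3p, lie at 0.75 and 0.62, while the intervals of the 3p arms of the family include 0.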

How the data were processed

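Counts per mature miRNA were deposited by the authors as whole numbers for 4 vehicle and 4 IL-1β libraries. Per the study's methods and the labels, reads were trimmed with cutadapt, aligned to mm10 with STAR (version 2.4.2a in the submitters' processing notes; the methods name another) and counted with featureCounts. The methods describe a batch correction with RUVseq. Whether the deposited values had been corrected is not known, since whole numbers and unequal totals do not settle it. They were treated as uncorrected counts. Treatment of multi-mapping reads and of strand is not given in the sources used here. STAR at default settings can miss very short or repetitive reads.

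From these counts, differential abundance was tested with edgeR 4.0.16 (robust quasi-likelihood, TMM, two-sided, group as the only term) in R 4.3.3 over 564 miRNAs above 1 CPM in at least 4 of 8 libraries. Thresholds were a Benjamini-Hochberg adjusted p under 0.05 and an absolute log2 fold change over 0.3, as in the study's miRNA results. Arm ratios were tested with limma 3.58.1 on log2((3p + 0.5)/(5p + 0.5)) over 142 hairpins, and that of miR-130b also by an exact permutation test. Shares have exact (Clopper-Pearson) 95% intervals. Alternatives were other scalings, other count filters, other pseudocounts, DESeq2 1.42.0, a replicate block, 1 surrogate variable (sva 3.50.0) and leaving out each library. The edgeR and limma steps were tested on simulated data. Sequences were matched by name to RefSeq. The text names all family arms, both lists, cell type markers, and for miR-130a-3p and miR-301a-3p the 5 miRNAs of most similar pattern. Members and lists were chosen with earlier results of these data known.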

Additional observations from a re-analysis of the deposited data

Results flagged for a closer look

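miR-301a-3p in IL-1β replicate 1 stood far from the other libraries of its group, at 43.2 normalized CPM against 20.5 to 23.8; the gap to the nearest library was 0.852 of the range of the group. The same library stood apart in the share of miR-301a-3p among the 3p reads of the family, 6.19% against 2.77% to 3.19% (gap 0.877 of the range). Both values rest on the same 27 counts. Of 20 groups of 4 libraries examined for such a gap, 2 had one, where chance gives about 1.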

How the results depend on the processing

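No family arm was called under any of the 15 alternatives run. miR-130a-3p, miR-130b-3p and miR-130b-5p stayed below 0 and miR-301a-3p above 0 in all 15 (-0.12 to -0.03, -0.23 to -0.04, -0.83 to -0.39 and 0.10 to 0.64), and the arm ratio difference of miR-130b above 0 in all 13 run for it (0.32 to 0.74). miR-130b-5p had an unadjusted p under 0.05 in 12 of 15. miR-301b-3p passed the filter in 10 alternatives and ranged from -0.0361 (without vehicle replicate 2; -0.0079 without vehicle replicate 4) to 0.5265. The gap between groups for miR-130b-5p was -0.243 normalized CPM with library totals only. The count of all miRNAs called, 11 by edgeR, was 19 with the replicate block and 18 with 1 surrogate variable, and ranged from 6 (without vehicle replicate 4) to 19 (without IL-1β replicate 4) when 1 library was left out; it was 7 without vehicle replicate 2 and 7 without IL-1β replicate 3. Leaving out 1 library turned the sign of 5 list members: miR-19b-3p ranged from -0.61 (without IL-1β replicate 2; -0.096 without vehicle replicate 4) to 0.32, miR-148a-3p from -0.0924 to 0.012 (without vehicle replicate 2), miR-146b-5p from -0.14 (without IL-1β replicate 4) to 0.6668, miR-155-5p from -0.14 to 0.0551 (without vehicle replicate 4; 0.0334 without vehicle replicate 2) and miR-132-3p from -0.10 to 0.0853 (without vehicle replicate 3; 0.0632 without IL-1β replicate 1); none of these was called, and the cause was not tested. Replicate numbers did not pair the libraries: same-numbered libraries correlated at 0.17, -0.34, 0.10 and -0.18 over 195 miRNAs, and 2 of 4 correlated best with their own number. With the replicate block 0 family arms were called (miR-130b-5p -0.58, adjusted p = 0.346; miR-301a-3p 0.40, adjusted p = 0.741, edgeR). Depth limits miR-301b-3p and the 5p arms of miR-130a, miR-301a and miR-301b, for which no response could be measured.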

Other observations

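The miRNAs outside the family whose levels followed miR-130a-3p most closely over the 8 libraries (Pearson's r of log2 normalized CPM with 1 added) were miR-152-3p (0.898), miR-370-3p (0.890), miR-181a-1-3p (0.881), miR-6986-5p (0.871) and miR-346-5p (0.853). The 95th percentile over the tested miRNAs outside the family was 0.711. These 5 were picked as the highest of the same values, so they exceed it by selection, which tests nothing. miR-152-3p, which also holds 6 of the 7 seed bases, averaged 91.3 normalized CPM, while miR-6986-5p and miR-346-5p averaged 1.46 and 1.61 and rest on few counts.

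For miR-301a-3p the closest were miR-101b-3p (0.853), miR-6968-3p (0.848), miR-22-5p (0.819), miR-574-5p (0.817) and miR-7069-3p (0.807). The 95th percentile was 0.627 here, and the 5 highest exceed it by selection as well. Of these 5, miR-574-5p was the most abundant, at 137 normalized CPM, and the other 4 averaged under 10. No miRNA was on both lists of 5. In each library all miRNAs share depth and scaling, and with 8 points these values describe likeness and nothing of control.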
